A study of Rattus norvegicus with 24 samples.

Results

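The genes described here are those named for the proteasome in the rat, that is, every reference gene of the tables whose name begins with Psma, Psmb, Psmc, Psmd, Psme, Psmf or Psmg. The rule found 50 of the 32883 reference genes, each listed once in every table. Of these, 48 encode subunits, activators, the inhibitor or assembly factors, and Psmc3ip and Psme3ip1 carry a proteasome-like name without being subunits. RNA-Seq was performed on the frontal cortex of 24 adult male Sprague-Dawley rats, 24 hours after inhalation exposure to an aerosol of tungsten particles. The Control, Low and High groups held 8 rats each, and their labels give an aerosol concentration of 0, 5 and 80 mg/m3, each rat being a labelled sample of its own. The age of the rats is not stated in the sources used here. The comparison of the groups asks whether inhaled tungsten particles changed gene expression in this part of the brain.

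The proteasome is the main protease of the cytosol and nucleus and degrades proteins that carry a ubiquitin chain. Its core is a barrel of outer rings of alpha subunits and inner rings of beta subunits, 3 of which are catalytic. A regulatory particle, made of a base with ATPases and of a lid, binds ubiquitin chains, removes them and unfolds the substrate. Interferons and inflammation bring in Psmb8, Psmb9 and Psmb10, which replace the constitutive catalytic subunits Psmb5, Psmb6 and Psmb7 and form the immunoproteasome, whose peptides are presented on MHC class I. In neurons the proteasome also takes part in the turnover of synaptic proteins.

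For each rat the authors deposited the StringTie gene table, with the coverage of a gene (its mean read depth per base), its FPKM and its TPM. Coverage was divided by its sum over the reference genes of the rat and multiplied by 1000000, and this is called scaled coverage below. Before scaling, this sum, in units of 1000000, lay between 1.67 and 2.82 for Control rats, between 1.64 and 3.07 for Low rats and between 1.77 and 2.67 for High rats. The tables hold no read counts, so counting error is not known. The Control and High tables also list loci assembled from the reads (46334 to 159573 and 50235 to 64010 per rat), and the Low tables list 0 of them, so that dose and table format cannot be told apart in any comparison with Low. A locus on the same strand overlapped 47 of the 50 genes in all 8 Control tables and 46 in all 8 High tables. The share of mitochondrial genes in the scaled coverage was 22.1 to 29.97% for Control rats, 21.8 to 33.8% for Low rats and 22.5 to 27.8% for High rats. Although the labels' extraction text speaks of cell lines, neuronal, astrocyte, oligodendrocyte and microglia markers were present in every group. Of the 3 endothelium markers found, Cldn5 was at or near 0 in all of them, but their sum was not. The group medians of this sum lay between 60.1 (High rats) and 72.0 (Low rats). Slco1a4, another of these markers, was higher in Low than in High at a limma adjusted p under 0.05, as were 5.30% of all genes tested. Summed striatal markers ranged from 172 to 1049 in High against 238 to 505 in Low. In bulk tissue, fewer cells of a type and less RNA per cell cannot be told apart.

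The subunit genes of the constitutive proteasome had class medians between 86.6 and 134 by scaled coverage, with single genes from 13.2 to 242. Both coverage and FPKM are per length, but they disagreed on the level of a few genes, as given below. An order of genes therefore holds only for the column it was read from. The highest mean over the 24 rats on the scaled coverage was that of Psmc5 (242), an ATPase of the base, followed by Psmc1 (187), another of them, and Psmb4 (176), a non-catalytic beta subunit. The lowest were Psma8 (0.677), the alpha subunit known from testis, Psmb8 (1.40) and Psmb11 (1.62), the beta subunit known from the thymus. The median of a class was 86.6 for the 7 alpha-ring genes, 103 for the 7 constitutive beta genes, 134 for the 6 base ATPases, 105 for the 3 non-ATPase base genes and 92.2 for the 8 lid genes. Assembly factors and activators were lower, with medians of 27.1 for the 4 core assembly factors, 19.9 for the 3 assembly factors of the regulatory particle and 31.0 for the 4 activators.

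**Figure D1:**
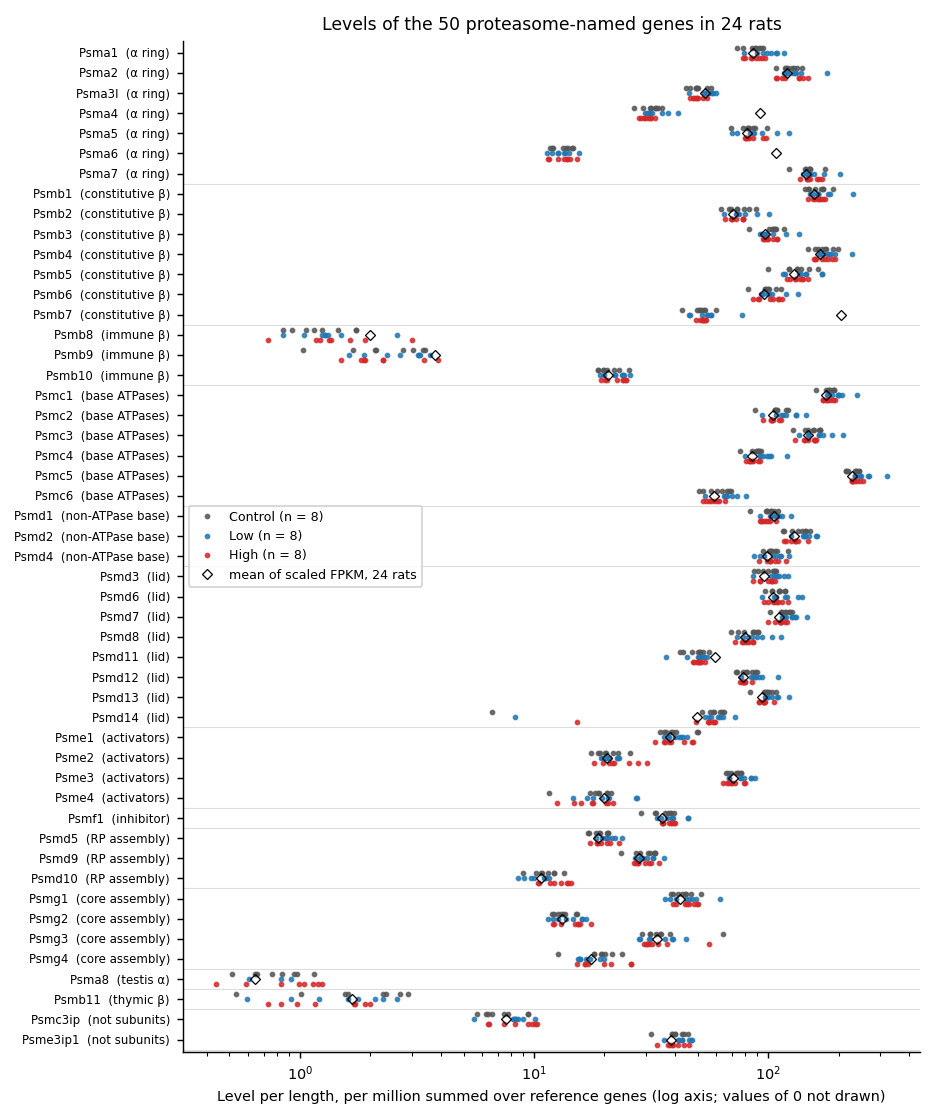
Scaled coverage of the 50 genes by class on a log axis, 1 point per rat and colour per group, with open diamonds for the mean of FPKM scaled in the same way; values of 0 (Psma8 in 5 Low rats) are not drawn. Constitutive subunits lie between 13.2 and 242 on the mean, Psmb8, Psmb9, Psmb11 and Psma8 lie at 2.51 or less, and the diamonds of Psma4, Psma6 and Psmb7 stand apart from their points.

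The deposited FPKM, scaled to its own sum, gave another order for a few genes. For 40 of the 50 genes the scaled FPKM was between 0.93 and 0.97 times the scaled coverage, but the factor was 8.15 for Psma6, 3.84 for Psmb7, 2.88 for Psma4, 1.51 for Psmb9, 1.43 for Psmb8 and 1.20 for Psmd11. Psma6, an alpha subunit, thus ranked 44 of 50 by scaled coverage (13.2) and 12 by scaled FPKM (108). Psmb7, the trypsin-like catalytic subunit, ranked 27 by scaled coverage (53.3) and 2 by scaled FPKM (205). With FPKM, the highest alpha gene was 2.68 times the lowest, against 11.6 times with coverage, so the low rank of Psma6 rests on the coverage column.

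The constitutive subunits varied little between rats. Over the 31 genes of the core and the regulatory particle, the median coefficient of variation within a group was 8.93% in Control, 12.1% in Low and 6.53% in High. The 7969 genes within the same range of mean levels (13.2 to 242) had medians of 13.2%, 12.1% and 10.8%. Psma6 alone set the low end of that range, while the class medians lay between 86.6 and 134, so the match in level is loose. A closer match was not tested. The Low rats were the ones in which these subunits varied about as much as those genes. The summed level of the core and regulatory particle in Low was highest in rat 57 (4139) and lowest in rat 61 (2963), with a median of 3353 over the 8 rats. In Control the sum ran from 2739 in rat 51 to 3361 in rat 49, and in High from 3021 to 3364, so the ranges of the 3 groups overlapped. Rat 61 also had the highest share of mitochondrial coverage of its group (33.8%) and rat 51 the highest of Control (29.97%). Their part in the low sums was not tested, and the comparisons below give the counts with a scaling that leaves out mitochondrial genes.

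The alpha ring gates the entrance of the core. Control rats had a summed scaled coverage of 538 ± 40.7 over its genes, Low rats 584 ± 73.2 and High rats 546 ± 38.6 (SD, n = 8 each). Psma7 and Psma2 were its highest genes, with means of 153 and 128, and Psma6 and Psma4 its lowest (13.2 and 31.9). Psma3l, which RefSeq lists as a synonym of Psma3, had a mean of 51.7. Psma1 spanned 73.4 to 95.3 (median 88.6) over the Control rats, 79.2 to 117 (median 100.6) over the Low rats and 78.1 to 96.5 (median 87.1) over the High rats. Its highest values were from Low rats, but the groups overlapped.

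For the constitutive beta ring the sum was 798 ± 75.4 over Control rats, 846 ± 109.8 over Low rats and 798 ± 46.4 over High rats (SD, n = 8 each). Psmb4 and Psmb1, its highest genes by coverage (176 and 166), are not catalytic. Psmb5, which carries the chymotrypsin-like activity, spanned 100.1 to 164 (median 133) over the Control rats, 116 to 171 (median 142) over the Low rats and 119.9 to 148 (median 134) over the High rats. Psmb6, with the caspase-like activity, ranged from 82.4 to 114 with a median of 99.4 for Control, from 93.3 to 134 with a median of 100.6 for Low and from 85.8 to 115 with a median of 104 for High. Psmb7 ranged over 43.0 to 60.1 (median 51.7), 46.0 to 77.6 (median 55.1) and 49.2 to 54.5 (median 52.8) in the same order. All 3 genes overlapped between the groups. The RefSeq gene table also lists Psmb3l1, Psmb6l1 and Psmg4l1, so that reads of Psmb3, Psmb6 and Psmg4 could be shared with near-identical copies, which was not tested.

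The immune subunits were present at far lower levels than the subunits they replace. Psmb8, the partner of Psmb5, had scaled coverages of 0.849 to 1.73 (median 1.19) among Control rats, 0.843 to 2.61 (median 1.28) among Low rats and 0.731 to 3.002 (median 1.34) among High rats. Psmb9, the partner of Psmb6, had 1.03 to 3.43 (median 2.44), 1.62 to 3.61 (median 2.93) and 1.49 to 3.90 (median 2.08) in the same order. Psmb10, the partner of Psmb7, stood higher, with 18.7 to 25.4 (median 20.2), 19.1 to 25.8 (median 23.0) and 19.3 to 24.7 (median 23.3), again in that order. No group stood outside the range of another for any of these genes.

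In each rat the constitutive subunit exceeded its immune partner. Psmb5 over Psmb8 by scaled coverage was 113 ± 37.9 among Control rats, 114 ± 44.2 among Low rats and 99.95 ± 40.2 among High rats (SD, n = 8 each), and by scaled FPKM 99.3 ± 49.7, 66.3 ± 32.5 and 90.2 ± 49.8. Psmb6 over Psmb9 was 47.3 ± 22.6, 41.5 ± 12.3 and 46.1 ± 11.3, and by scaled FPKM 30.1 ± 14.2, 24.9 ± 7.39 and 29.5 ± 6.96. Psmb7 over Psmb10 was only 2.48 ± 0.293, 2.47 ± 0.375 and 2.35 ± 0.243, which with scaled FPKM became 9.50 ± 1.19, 11.03 ± 1.67 and 9.24 ± 0.879. Summed over the 3 genes, the immune subunits were at 8.79% ± 1.46 of the constitutive catalytic subunits in Control, 8.92% ± 1.32 in Low and 9.17% ± 0.954 in High, and at 6.24% ± 1.01, 6.05% ± 0.818 and 6.39% ± 0.769 with scaled FPKM. For this share the differences between the groups were smaller than the spread between rats on both columns. For Psmb7 over Psmb10 by scaled FPKM, Low and High differed by more than the SD of either group, which was not tested. The mean scaled FPKM of Psmb7 was 4.14 times its mean scaled coverage in Low, against 3.63 in Control and 3.73 in High. For Psmb8 this factor was 1.67 in Low, against 1.30 in Control and 1.32 in High. Psmb10 made up most of the immune sum, and Psmb8 and Psmb9 lay close to the level of 1 used as the minimum mean for the tests.

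**Figure D2:**
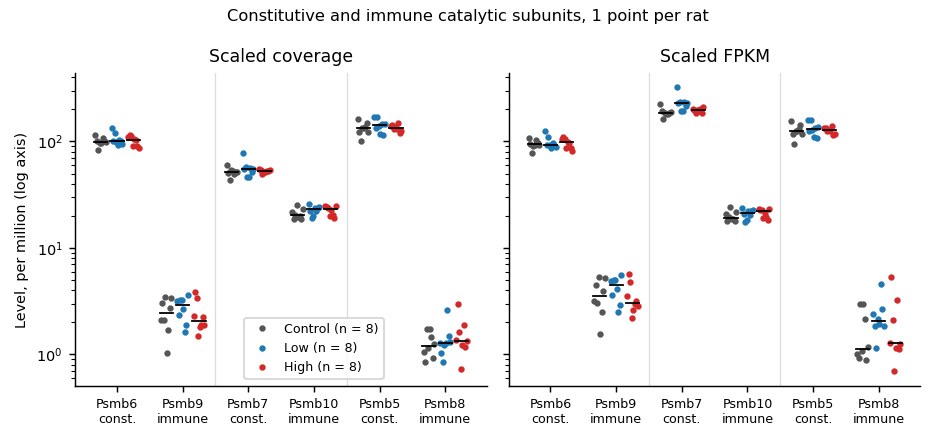
Levels of the constitutive catalytic subunits beside the immune subunit that takes each one's place, 1 point per rat on a log axis, with black lines for the medians of 8 rats; scaled coverage is on the left and scaled FPKM on the right. Psmb8 and Psmb9 lie under 10 on both scales, Psmb10 near 20, and Psmb7 moves up from about its coverage of 53.3 to 205 with FPKM.

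Psmb8 and Psmb9 lie side by side in the MHC region of chromosome 20, around the peptide transporter gene Tap1. The tables place Psmb9 at 20:3973420-3978845 on the minus strand and Psmb8 at 20:3990613-3993769 on the plus strand, and Tap1, the only gene between them, starts 189 bases after Psmb9. The submitters' processing notes list the build mRatBN7.2, but whether these positions are of that build is not settled by the sources used here. Although neighbours, Psmb8 and Psmb9 were not correlated over the 24 rats (Pearson's r = -0.08, permutation p = 0.709, adjusted over 7 pairs 0.709; Spearman's rho = -0.15, permutation p = 0.468). Both lie near the lowest level tested, with means of 1.40 and 2.51. Without read counts, how far noise at this level limits r is not known. Within groups r was -0.69 in Control, -0.70 in Low and 0.79 in High, with exact permutation p of 0.0603, 0.0397 and 0.0165, none under 0.05 after adjustment (0.211, 0.278 and 0.0576). Psmb8 with Psmb10 (r = 0.29, permutation adjusted p = 0.243) and Psmb9 with Psmb10 (r = 0.29, permutation adjusted p = 0.243) did not pass either. The pairs of constitutive and immune partners had r between -0.10 and 0.34, with the smallest permutation adjusted p at 0.243.

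The promoters of these partners were searched for a pair of motifs. The windows of 250 bases before to 50 bases after the start of each gene were taken from RefSeq on the build GRCr8, where 45 of the 50 genes have one. The letters TGACNNNGC, the core of the antioxidant response element that Nfe2l1 and Nfe2l2 bind, were sought on both strands and found in 8 of the 45 windows (17.8%) against 12.1% of all 33469 windows. The letters GAAA followed after any 2 bases by GAAA, the core of the interferon-stimulated response element, were sought in the same way and found in 7 of the 45 (15.6%) against 3.92% of all. The first occurred in Psmb5 and Psmb6 and the second in Psmb8, Psmb10 and Psme2, while Psmb7 and Psmb9 held neither. The first was also in Psma3l, Psmb2, Psmd1, Psmd3, Psmd9 and Psme4, and the second also in Psma4, Psmb3, Psmd7 and Psmg4, so that neither was particular to a class. In Psmb8 the match spans the start itself. The 250 bases before the start are shown for 4 of these genes, with the matches in capitals, because they set the constitutive catalytic genes beside the interferon-responsive ones. Psmb5 is at chr15:32047380-32047629, minus strand, Psmb6 at chr10:55737638-55737887, plus strand, Psmb10 at chr19:50743293-50743542, minus strand, and Psme2 at chr15:33052752-33053001, minus strand. Each is written 5′ to 3′ along the gene.
Psmb5: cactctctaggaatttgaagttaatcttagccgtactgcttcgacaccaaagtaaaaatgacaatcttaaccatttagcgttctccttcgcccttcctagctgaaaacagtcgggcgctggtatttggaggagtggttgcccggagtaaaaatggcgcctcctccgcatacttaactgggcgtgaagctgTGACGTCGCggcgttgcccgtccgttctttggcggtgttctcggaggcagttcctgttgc
Psmb6: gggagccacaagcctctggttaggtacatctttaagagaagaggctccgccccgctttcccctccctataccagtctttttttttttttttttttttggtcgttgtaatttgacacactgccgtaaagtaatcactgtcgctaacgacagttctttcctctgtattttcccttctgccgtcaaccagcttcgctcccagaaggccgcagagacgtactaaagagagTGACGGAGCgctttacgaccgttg
Psmb10: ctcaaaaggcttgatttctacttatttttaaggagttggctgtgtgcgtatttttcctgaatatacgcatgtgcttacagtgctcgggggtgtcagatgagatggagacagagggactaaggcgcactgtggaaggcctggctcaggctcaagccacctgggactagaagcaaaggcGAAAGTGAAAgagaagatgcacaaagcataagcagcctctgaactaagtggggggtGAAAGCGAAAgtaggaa
Psme2: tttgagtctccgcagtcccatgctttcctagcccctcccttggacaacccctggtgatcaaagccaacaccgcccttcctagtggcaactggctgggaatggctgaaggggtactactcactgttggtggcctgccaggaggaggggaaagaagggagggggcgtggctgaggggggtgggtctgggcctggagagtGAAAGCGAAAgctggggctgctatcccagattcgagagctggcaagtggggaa
Psmb10 carries the second motif at 2 places, 73 and 17 bases before its start, and Psme2 at 1 place, 53 bases before. A match is a description of these letters and not a site of binding.

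In the regulatory particle, the base ATPases unfold substrates and open the gate of the core. Summed over the 6 genes, scaled coverage was 824 ± 49.4 for Control rats, 909 ± 100.8 for Low rats and 816 ± 32.7 for High rats (SD, n = 8 each). Psmc5 spanned 214 to 244 (median 236) over the Control rats, 236 to 322 (median 248) over the Low rats and 228 to 254 (median 233) over the High rats. Its highest value, 322, was that of Low rat 57, and the remaining Low rats lay between 236 and 270. Psmc6 (62.3) and Psmc4 (90.6) were the lowest ATPase genes. Of the non-ATPase base genes, Psmd2, a scaffold, had a mean of 137, and Psmd1 and the ubiquitin receptor Psmd4 had 102 and 105.

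The 8 lid genes summed to 692 ± 52.2 in the Control rats, 739 ± 54.1 in the Low rats and 676 ± 28.8 in the High rats (SD, n = 8 each). Psmd7, the partner of the deubiquitinase Psmd14, and Psmd6 were its highest genes (119 and 111), and Psmd11 (49.7) and Psmd14 (52.8) its lowest. Psmd14, the metalloprotease that cuts ubiquitin chains off substrates, was far lower in 3 single rats than in the rest. It was at 6.64 in Control rat 49, 8.25 in Low rat 57 and 15.2 in High rat 65, and at 49.4 to 72.3 (median 58.1) in the other 21 rats. Each of these 3 rats carries the lowest library number of its group, and 1 such rat was found in each group.

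Psmd7 and Psmd12 were not low in these rats. Psmd7 was at 124, 147 and 118 and Psmd12 at 78.2, 109.8 and 79.6 in rats 49, 57 and 65, all within or above the range of the other rats of their groups. Of the 15644 genes tested, 827 (5.29%) had their lowest 3 values in these rats and 179 (1.14%) their highest 3, the latter with Psmb4 and Psmg1 among them. In 9 genes (0.0575%), of which Psmd14 was the only one of the set, all 3 values were below 0.5 times the lowest other rat. The assembled locus over Psmd14 had a coverage, before scaling, of 12.7 in rat 49 and 25.2 in rat 65, beside 13.3 and 27.6 for the gene itself. Without these 3 rats Psmd14 was 59.6 ± 4.45 in Control, 60.9 ± 6.17 in Low and 56.2 ± 3.32 in High (SD, n = 7 each). The sources used here do not say how these 3 libraries differed from the others, and a cause was not tested.

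**Figure D3:**
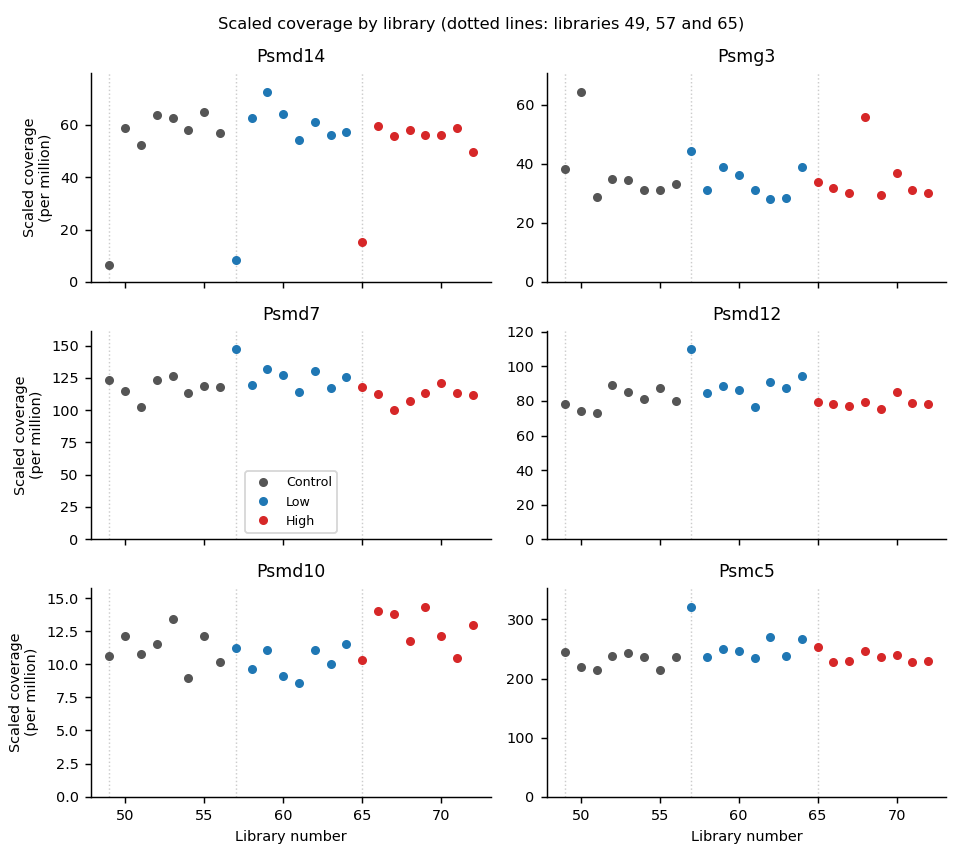
Scaled coverage by library number for Psmd14, Psmg3, Psmd7, Psmd12, Psmd10 and Psmc5, 1 point per rat, with linear axes from 0 and dotted lines at libraries 49, 57 and 65. Psmd14 is at 6.64, 8.25 and 15.2 on these lines and at 49.4 to 72.3 elsewhere, while the other genes show no such gap at all 3 lines.

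The activators open the core in place of the regulatory particle. Psme1 and Psme2 form 1 ring, are induced by interferon and lie 6609 bases apart on chromosome 15, at 15:34256071-34258947 and 15:34265557-34269851 in the tables. Psme1 spanned 34.5 to 50.0 (median 38.8) over the Control rats, 36.1 to 45.0 (median 40.8) over the Low rats and 32.9 to 47.6 (median 38.0) over the High rats. Psme2 ranged over 17.5 to 25.8 (median 20.2), 19.4 to 23.0 (median 20.9) and 18.0 to 30.3 (median 21.8) in the same order, so the groups overlapped for both. Psme3, a nuclear activator, was the highest of the class (mean 73.8), and Psme4 the lowest (18.9), with 11.5 in Control rat 49 against 17.4 to 21.3 in the other Control rats.

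Psme1 and Psme2 were the one pair of the 7 examined that varied together. Pearson's r was 0.69 over the 24 rats (permutation p = 0.00027, adjusted over 7 pairs 0.00189) and Spearman's rho 0.63 (permutation p = 0.00114, adjusted 0.00798). Without the 2 rats farthest from the median of Psme1, r was 0.68 (permutation p = 0.00055, adjusted 0.00385), while Spearman's rho was 0.54 and did not pass (permutation p = 0.00934, adjusted 0.0654). Within groups r was 0.71 in Control (exact permutation p = 0.0482, adjusted 0.211), 0.27 in Low (exact permutation p = 0.502) and 0.92 in High (exact permutation p = 0.00206, adjusted 0.0144), so that it did not pass within Control or Low. Spearman's rho within High was 0.88 (exact permutation p = 0.00724, adjusted 0.0507) and did not pass. The 4 rats with the highest Psme1 were Control rats 55 and 56 (49.8 and 50.0) and High rats 66 and 67 (47.6 and 47.4). These rats also had the highest summed levels of the 8 microglia markers, 250.1, 285, 284 and 296 against 162 to 248 in the other rats, and their part in the relation was not tested. Striatal markers were highest within High in rats 65, 66 and 67 (1049, 629 and 729), the 3 rats of that group with the highest Psme2 (25.4, 27.9 and 30.3). In Control, rats 55, 49 and 56 had striatal sums of 670, 590 and 558. Psme2 was at 22.9 and 25.8 in Control rats 55 and 56 but only at 18.8 in rat 49. Whether striatal markers and Psme2 are related was not tested.

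**Figure D4:**
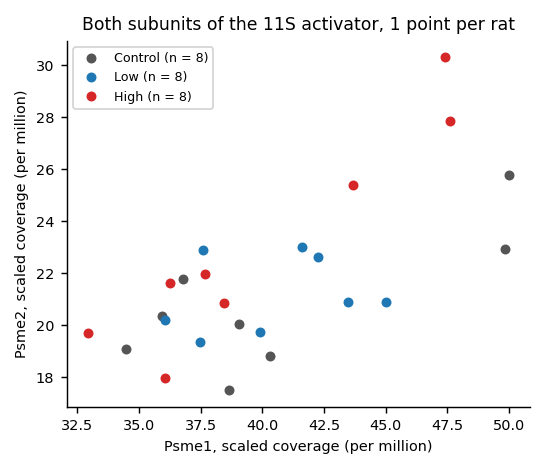
Psme2 against Psme1 in scaled coverage, 1 point per rat and colour per group (n = 8 each), on linear axes that do not start at 0. The points of High rats 66 and 67 and Control rats 55 and 56 lie at Psme1 of 47.4 to 50.0, and the overall r is 0.69.

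The inhibitor Psmf1 had scaled coverages of 28.6 to 39.4 (median 36.8) among Control rats, 33.4 to 45.6 (median 38.8) among Low rats and 35.1 to 39.997 (median 38.1) among High rats. Among the chaperones of the core, Psmg1 (44.8) and Psmg3 (35.6) were the highest and Psmg2 (14.02) the lowest. Psmg3 was at 64.3 in Control rat 50 and 55.8 in High rat 68, and at 28.0 to 44.5 in all other rats. Psmd10, also called gankyrin, is a chaperone of the base and had the lowest level of the regulatory-particle factors, with 8.997 to 13.4 (median 11.1) among Control rats, 8.57 to 11.5 (median 10.6) among Low rats and 10.4 to 14.4 (median 12.6) among High rats. For Psmd10, 4 of the 8 Low rats lay below the lowest High rat and the others overlapped the High range.

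Psma8 was the one gene of the set below the minimum mean of 1 and was not tested. It was at 0.512 to 1.14 in Control and 0.439 to 1.24 in High, and was listed at 0 in 5 of the 8 Low rats. Psmb11 spanned 0.533 to 2.90 among Control rats, 0.594 to 2.60 among Low rats and 0.728 to 1.99 among High rats. Of the 2 genes that are not subunits, Psmc3ip, known from meiotic recombination, had a mean of 8.05, and Psme3ip1, which binds Psme3, one of 41.0.

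Between Low and Control, no proteasome gene passed the threshold of 0.05 on the adjusted p of limma, in a comparison in which 6.11% of the 15644 genes passed (1.23% higher and 4.88% lower in Low). At an unadjusted p under 0.05, 6 of the 49 genes tested were higher in Low (12.2%, against 9.71% of all genes) and 0 lower (8.73%), where 18.4% of all genes were past it in either direction. They were Psma1, Psma3l, Psmc1, Psmc4, Psmc5 and Psmd12. The exact Wilcoxon rank-sum test also made 0 calls, with 5 genes at an unadjusted p under 0.05. The share of all genes at that unadjusted p by the Wilcoxon test is not given here. For no gene did the groups fail to overlap, which 0.0831% of all genes did as higher and 1.44% as lower in Low. Psma1 differed by 0.20 on the log2(value + 1) scale (SE 0.07, limma adjusted p = 0.115), Psmc5 by 0.15 (SE 0.06, limma adjusted p = 0.118) and Psmd12 by 0.14 (SE 0.06, limma adjusted p = 0.176). The median over the 49 genes was 0.10 and 43 of them were above 0, beside a median of 0.06 and 66.5% above 0 for all genes tested, which share the scaling.

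The classes lay close together in this comparison. The median difference was 0.09 for the alpha ring, 0.09 for the constitutive beta ring, 0.10 for the immune subunits, 0.14 for the base ATPases, 0.10 for the lid and -0.01 for the core assembly factors. Psmb8 differed by 0.06 (95% interval -0.24 to 0.37), Psmb9 by 0.13 (-0.22 to 0.48) and Psmb10 by 0.10 (-0.05 to 0.26). The intervals of Psmb5 (-0.09 to 0.28), Psmb6 (-0.08 to 0.24) and Psmb7 (-0.06 to 0.26) also held 0. Psme1 differed by 0.00 (-0.17 to 0.18) and Psme2 by 0.03 (-0.15 to 0.22).

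The choice of scale decided how many genes were called. Scaling without the mitochondrial genes gave 6 genes higher in Low (Psma1, Psma3l, Psmc4, Psmc5, Psmd2 and Psmd12), where 10.8% of all genes were called. The FPKM column as deposited gave 46 of the 47 genes then tested as higher in Low, with 89.7% of all genes called and the median of all genes moved to 0.53. The median of the proteasome genes under that column was 0.60. FPKM scaled to its sum gave 1 gene, Psmb7, at 0.29 (limma adjusted p = 0.0147). For Psmb7 the scaled FPKM was 4.11 to 4.18 times the scaled coverage in Low, 3.397 to 3.80 times in Control and 3.52 to 3.94 times in High, ranges that do not overlap with Low.

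Between High and Control, no proteasome gene passed, and none had an unadjusted p under 0.05 in limma (1 by the exact Wilcoxon rank-sum test, which also made 0 calls). None of the 15644 genes passed either (0.00%), and 2.11% had an unadjusted p under 0.05 (0.563% higher and 1.55% lower). The groups overlapped for all 49 genes, as for all but 0.00639% of the genes tested. The median over the 49 genes was -0.01, with 23 above 0 and 26 below, beside -0.03 and 36.0% above 0 for all genes. Excluding Psmd14, the 95% intervals of the other 30 genes of the core and the regulatory particle all held 0 and stayed between -0.22 and 0.23 on the log2(value + 1) scale. For Psmd14, with 1 low library in each group, the interval was -0.84 to 0.96. The 3 genes with the smallest p were Psmd10 (difference 0.14, SE 0.08), Psme2 (0.14, SE 0.09) and Psmc3ip (0.18, SE 0.12), each with a limma adjusted p of 0.999. Psmb8 differed by 0.14 (95% interval -0.17 to 0.44), Psmb9 by -0.02 (-0.37 to 0.32) and Psmb10 by 0.10 (-0.06 to 0.25). The intervals of Psmb5 (-0.16 to 0.20), Psmb6 (-0.14 to 0.18), Psmb7 (-0.13 to 0.19) and Psme1 (-0.20 to 0.16) held 0 as well.

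**Figure D5:**
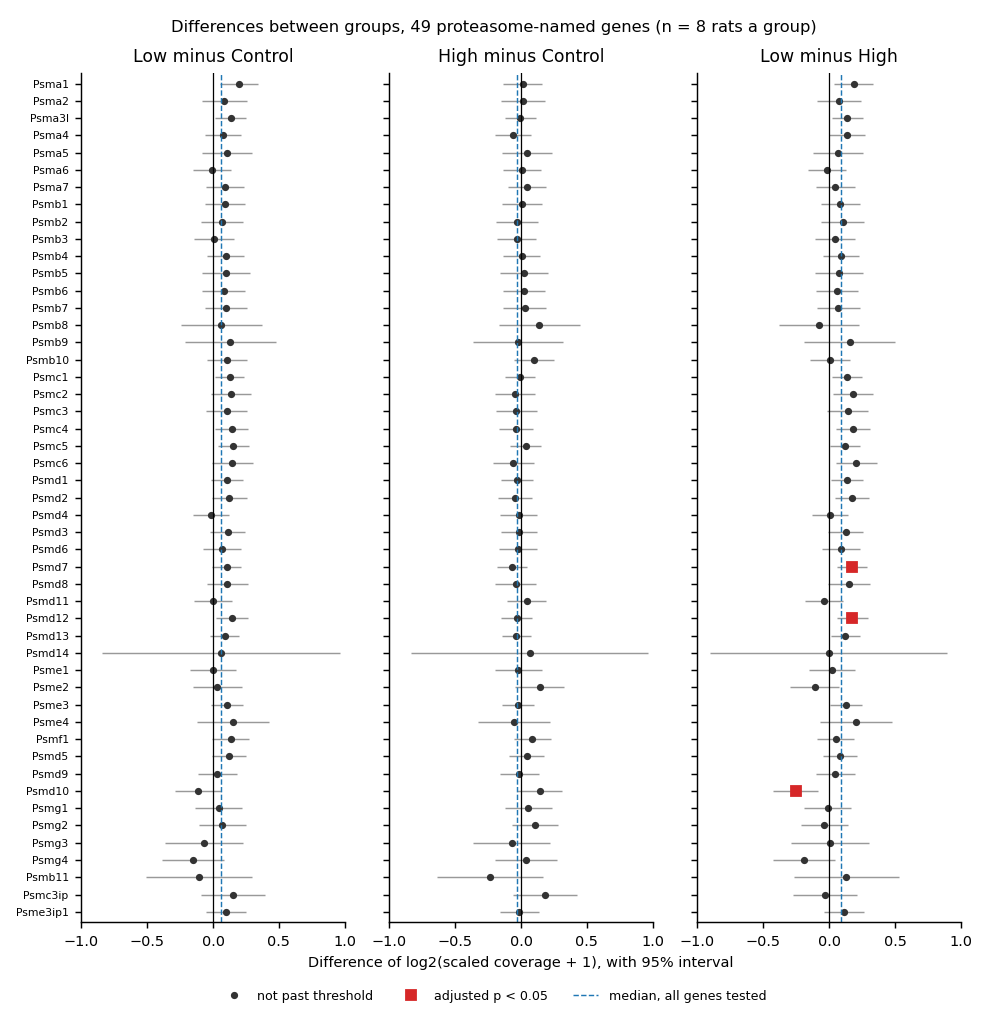
Differences of log2(scaled coverage + 1) between groups for the 49 genes tested, with 95% intervals from limma, the median of all genes tested as a dashed line and red squares for an adjusted p under 0.05. Psmd7 and Psmd12 (0.17 and 0.18) and Psmd10 (-0.25) are the squares, all in the comparison of Low with High, and Psmd14 has the widest interval.

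Between Low and High, 2 proteasome genes were higher in Low and 1 was lower, in a comparison in which 5.30% of all genes were higher and 6.39% lower. The 3 genes called were 6.12% of the 49, where 11.7% of all genes were called. At an unadjusted p under 0.05 there were 13 higher, the 6 of the comparison with Control among them, and 1 lower, where 19.9% of all genes were higher, 9.19% lower and 29.1% in either direction. Psmd7 was 0.17 higher in Low (SE 0.05, 95% interval 0.06 to 0.28, limma adjusted p = 0.0389) and Psmd12, another lid scaffold, 0.18 higher (SE 0.06, 95% interval 0.06 to 0.30, limma adjusted p = 0.0497). Psmd10 was lower in Low (difference -0.25, SE 0.08, 95% interval -0.43 to -0.08, limma adjusted p = 0.0484). All 3 overlapped between the groups, as did every other gene of the set, where 0.262% of all genes were higher and 2.0% lower without overlap. In Low, Psmd7 ranged over 114 to 147 (median 126) against 99.8 to 121 in High (median 113), and Psmd12 over 76.5 to 109.8 (median 88.2) against 75.5 to 85.4 (median 78.7). The median over the 49 genes was 0.08 with 39 above 0, beside 0.09 and 69.9% above 0 for all genes. Psmb8 differed by -0.08 (95% interval -0.38 to 0.23), Psmb9 by 0.15 (-0.19 to 0.50), Psmb10 by 0.01 (-0.14 to 0.16), Psme1 by 0.02 (-0.15 to 0.20) and Psme2 by -0.11 (-0.30 to 0.08). The catalytic Psmb5, Psmb6 and Psmb7 differed by 0.08, 0.06 and 0.07, with intervals that held 0.

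These 3 calls lay close to the threshold. Psmd7 stayed past it in 21 of 38 alternatives, Psmd10 in 15 (with the opposite sign in 1 of them, the FPKM column) and Psmd12 in 9. Of the 38, 24 each left out 1 rat and so share most of their rats with the main fit. Without rat 57 neither Psmd7 (limma adjusted p = 0.0606) nor Psmd12 (0.0735) passed. Without rat 61, 11 genes passed, all higher in Low, and Psmd10 did not (0.0718). Leaving out the 3 rats with low Psmd14 gave 2 calls, Psmd7 (0.0378) and Psmd10 (0.0141). The shares of all genes called without rat 61 or without these 3 rats are not given here. Neither count can therefore be read as particular to the proteasome genes. With libraries 56 to 62, a set taken from an earlier analysis of these data, as a covariate, none of the 3 passed (Psmd7 0.440, Psmd12 0.312 and Psmd10 0.508). That set is Control rat 56 and Low rats 57 to 62, with no High rat, so the covariate nearly coincides with the Low group. With it, 2.26% of all genes were called, against 11.7% in the main fit. The loss can therefore not be read as particular to the 3 genes. Without any scaling, the differences of Psmd7 and Psmd12 changed sign (-0.04 each) while Psmd10 remained lower (-0.46). Under median-of-ratios scaling, Psmd10 passed (-0.34, limma adjusted p = 0.00679) and Psmd7 and Psmd12 did not.

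Among the ubiquitin genes and partners of the proteasome, 25 of the 26 listed were found and tested. Between Low and Control, 1 was higher (Ubqln4, a shuttle for ubiquitinated proteins) and 2 were lower, between High and Control 0 passed, and between Low and High 3 were higher (Uba6, Ube3a and Ube3c, enzymes that activate or attach ubiquitin) and 2 were lower. Of all genes tested, 6.11%, 0.00% and 11.7% were called in the same comparisons. Ubqln4 differed by 0.18 (SE 0.05, limma adjusted p = 0.0467) and kept its call in 10 of 38 alternatives. Ube3a differed by 0.38 (SE 0.10, limma adjusted p = 0.0157) and kept its call in 35 of 38, against 14 for Uba6 and 18 for Ube3c. The 3 alternatives in which Ube3a lost its call were not among the 24 that each leave out 1 rat. The 2 lower genes were Uchl5 and Txnl1 in both comparisons. Uchl5, a deubiquitinase bound to the base, spanned 5.07 to 8.83 (median 8.02) among Control rats, 4.62 to 6.599 (median 5.13) among Low rats and 7.19 to 9.61 (median 7.96) among High rats. Low lay below every High rat and overlapped Control. The difference was -0.44 against Control (SE 0.09, limma adjusted p = 0.0039) and -0.52 against High (SE 0.09, limma adjusted p = 0.000489), calls kept with their sign in 31 and 33 of 38 alternatives. Txnl1, a thioredoxin-like protein that binds the regulatory particle, spanned 16.3 to 29.7 (median 27.0) among Control rats, 15.6 to 20.27 (median 17.8) among Low rats and 20.34 to 27.8 (median 22.8) among High rats, so that Low again lay below every High rat and overlapped Control. Its difference was -0.41 against Control (SE 0.11, limma adjusted p = 0.0205) and -0.36 against High (limma adjusted p = 0.0283), kept in 28 and 30 of 38. With libraries 56 to 62 as a covariate none of these 4 calls passed (limma adjusted p = 0.172 and 0.0948 for Uchl5, 0.496 and 0.505 for Txnl1). This covariate nearly coincides with the Low group, so the loss cannot tell the set of libraries from the dose.

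The FPKM column gave the opposite direction for both genes. Scaled FPKM of Uchl5 spanned 7.43 to 10.3 among Control rats, 22.1 to 32.3 among Low rats and 7.88 to 9.92 among High rats, a difference of 1.46 against Control (limma adjusted p = 2.62e-13). The scaled FPKM of Uchl5 was 4.76 to 4.93 times its scaled coverage in Low and 1.01 to 1.47 times in the other groups. Txnl1 with scaled FPKM was 0.63 higher in Low than in Control (limma adjusted p = 5.05e-05). Its factor of scaled FPKM over scaled coverage was 5.80 to 5.87 in Low, 2.42 to 5.79 in Control and 2.40 to 2.72 in High. The highest Control factor of Txnl1 thus lay close to the Low range. Why the factors differ was not tested. The direction of Uchl5 and Txnl1 in Low therefore depended on the column read from the tables, and dose and table format cannot be told apart.

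Ubb, which encodes ubiquitin, was not called in any of the 3 comparisons. It was at 2062 ± 177 for Control rats, 1951 ± 225 for Low rats and 2086 ± 149.8 for High rats (SD, n = 8 each). Nfe2l1, the factor that induces proteasome genes when the proteasome is inhibited, was at 136 ± 19.9, 142 ± 15.5 and 129 ± 9.95 in the same order. Adrm1, Sem1 and Pomp, further components and a maturation factor, were not called either.

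Of 14 genes of antigen processing and interferon response, 13 were tested and Tap2, which pairs with Tap1 in the peptide transporter, was the only call. Tap2 was at 1.51 to 3.54 in Control (median 1.97) and 1.28 to 2.86 in High (median 2.02), and was listed at 0 in 4 of the 8 Low rats, with 3.18 as the highest Low value. The difference on the log2(value + 1) scale was -0.92 for Low against Control (limma adjusted p = 0.0315) and -0.84 for Low against High (limma adjusted p = 0.0344). In these comparisons 6.11% and 11.7% of all genes were called. The calls of Tap2 were kept in 25 and 23 of 36 alternatives. By the exact Wilcoxon rank-sum test they did not pass (adjusted p = 0.201 and 0.128). Nor did they with libraries 56 to 62 as a covariate (limma adjusted p = 0.537 and 0.504), which nearly coincides with the Low group. Values of 0 for Tap2 occurred in 0 Control and 0 High rats, and dose and table format cannot be told apart. Tap1, Irf1 and B2m were not called. Tap1 was at 2.12 ± 0.368 in Control, 2.42 ± 0.524 in Low and 2.27 ± 0.330 in High, and B2m, the light chain of MHC class I, at 223 ± 27.5, 222 ± 23.9 and 215 ± 35.9 (SD, n = 8 each).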

How the data were processed

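Tables of 24 rats were analysed. Per the labels, libraries were stranded poly(A) mRNA, and the processing notes name FastQC, Trimmomatic, TopHat2 and StringTie without versions. The authors deposited coverage (a signal per base, not scaled for depth), FPKM and TPM per gene. In the Low tables the deposited TPM sums to 1000000 per rat, while in the Control and High tables that column sums to more and is treated as a score. The last gene on chromosome 1 ends at 282724300 in the tables. Coverage was scaled to 1000000 over the reference genes, and genes with a mean of at least 1 (15644) were tested on log2(value + 1) with limma 3.58.1 (trend, robust, two-sided, all 3 groups in 1 fit) in R 4.3.3, with Benjamini-Hochberg adjustment. Alternatives were a pseudocount of 0.1, other filters, scalings and columns, only the groups compared, a covariate, the exact Wilcoxon test and leaving out each rat. Correlations used 100000 permutations, or all permutations within groups of 8. Named genes were the immune and constitutive catalytic subunits, Psme1 and Psme2, the genes past the threshold (or the 3 with the smallest p where none passed), and the extremes of each class. Psmd14, Psmg3, Psma8, Psma3l and the named partners were chosen after their values were seen. The members and lists were chosen with earlier results of these data known. Data were also simulated from the means of the genes over the 24 rats and their spread within the 3 groups, with changes added to Low. For Low against Control, limma recovered 88 of 100 genes changed by 1 on the log2 scale and 45 of 100 changed by 0.5. Smaller changes, such as the differences of the proteasome genes, were not simulated. Whether the rats are independent beyond separate samples is not stated, so p-values measure the spread between these samples. Other tools were matplotlib 3.10.9, scipy 1.17.1, pandas 2.3.3, numpy 2.4.6 and Python 3.11.15.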

Additional observations from a re-analysis of the deposited data

Results flagged for a closer look

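Values that stood apart from the other 7 rats of their group by Dixon's criterion were found in 22 of 150 sets of 8 values, where about 7.5 are expected by chance, and 11 of the 22 came from libraries 49, 57 and 65. Psmd14 was at 6.64 in Control rat 49, 8.25 in Low rat 57 and 15.2 in High rat 65. In Low rat 57 the values of Psma2 (178), Psmb1 (231), Psmb4 (228), Psmb7 (77.6), Psmc1 (241) and Psmc5 (322) were above those of the other Low rats. Psme4 in Control rat 49 (11.5) was below and Psmd13 in High rat 65 (106) above its group. In Control rat 51, Psmb3 (83.2), Psmc1 (159), Psmc2 (88.0), Psmc4 (75.9) and Psme3ip1 (31.5) were below the other Control rats. Psma3l was low in Low rat 61 (46.1) and Psmc3ip in Low rat 64 (5.56). Psmb8 was high in Low rat 62 (2.61), Psmd12 in High rat 70 (85.4), and Psmg3 in Control rat 50 (64.3) and High rat 68 (55.8).

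Low and High differed by limma for Psmd7 (0.17), Psmd12 (0.18) and Psmd10 (-0.25), with adjusted p of 0.0389, 0.0497 and 0.0484. These genes were 6.12% of the 49 tested, where 11.7% of all genes were called. The calls stayed in 21, 9 and 15 of 38 alternatives, that of Psmd10 with the opposite sign in 1 of them. Dose and table format cannot be told apart in this comparison. Neither dose differed from Control for these genes at an adjusted p under 0.05, and both of those comparisons share the Control rats.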

How the results depend on the processing

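No paired analysis was possible because the replicate numbers are library numbers and no group shares them with another. Against Control, the count of proteasome genes called in Low moved from 0 to 6 with scaling that leaves out mitochondrial genes, 46 with the FPKM column, 13 with the TPM column and 1 with FPKM scaled to its sum. Of all genes, 6.11% were called in the main fit and 10.8%, 89.7%, 25.4% and 11.8% in these alternatives, in the same order. The median difference moved from 0.10 to 0.60 (FPKM column), 0.20 (TPM column) and 0.0088 (FPKM with median-of-ratios scaling). Between Low and High the count moved from 3 to 10 without mitochondrial genes, 45 with FPKM and 9 with TPM. Of all genes, 11.7% were called in the main fit and 16.7%, 89.8% and 25.2% in these alternatives. The count was 1 with no filter (Psma8), a minimum mean of 5, no scaling, median-of-ratios scaling, FPKM scaled to its sum, FPKM with median-of-ratios scaling, only the groups compared and the exact Wilcoxon test, and 0 with a covariate for libraries 56 to 62. The share of all genes called was 4.45 to 16.8% where the count was 1. It was 2.26% with the covariate, which nearly coincides with the Low group. The median difference between Low and High, 0.08, became -0.13 with no scaling, -0.011 with median-of-ratios scaling, 0.55 with FPKM and -0.039 with FPKM and median-of-ratios scaling. Psmd7 and Psmd12 turned to -0.044 and -0.040 with no scaling, and Psme2 and Psmd10 to 0.32 and 0.16 with the FPKM column. With FPKM, TPM, FPKM scaled to its sum and FPKM with median-of-ratios scaling, Uchl5 was 1.81, 1.57, 1.46 and 1.39 against Control and 1.76, 1.51, 1.43 and 1.34 against High, and Txnl1 1.15, 0.76, 0.63 and 0.56 and 1.28, 0.89, 0.80 and 0.71.

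Between High and Control the count was 0 in every alternative, with 2 genes at most at an unadjusted p under 0.05 in those that leave out no rat, while with no scaling the median became 0.17 and the summed levels of alpha ring, constitutive beta ring, base ATPases, lid and activators became 1.16, 1.14, 1.13, 1.12 and 1.14 times Control. The cause of these moves was not tested. Leaving out 1 rat gave 0 to 1 calls and medians of 0.06 to 0.11 for Low against Control (1 being Psma1 without Low rat 61), 0 to 0 and -0.04 to 0.01 for High against Control, and 0 to 11 and 0.05 to 0.11 for Low against High. The shares of all genes called in these fits are not given here, so the counts cannot be read as particular to the proteasome genes. The correlation of Psme1 and Psme2 did not pass within Control (0.71) or Low (0.27), with 8 rats each. Of 415 values of single genes for Low against Control, 396 stayed on their side of the threshold and 19 passed it, and all 377 for High against Control stayed. Of 415 for Low against High, 337 stayed, 7 passed, 67 no longer did and 4 called values changed sign. Among the values that stayed without a call, the sign differed in 21, 25 and 32, in the order Low against Control, High against Control and Low against High. Leaving out libraries 49, 57 and 65, and both scaled FPKM settings, were chosen after seeing the data. Depth is not known in counts, and Psmb8, Psmb9, Psmb11 and Psma8 lie near the lowest level tested.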
